A study of Mus musculus with 96 samples.

Results

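The genes described here encode the nuclear-encoded subunits of the mitochondrial respiratory chain and ATP synthase, measured by RNA-Seq in hepatocytes and liver macrophages of mice with diet-induced fatty liver. They were chosen by gene symbol, as the symbols beginning Nduf followed by a, b, c, s or v, the symbols Sdha to Sdhd, and those beginning Uqcr, Cox4 to Cox8 or Atp5. Of 95 such symbols among 25095 in the tables, 85 exceeded 5 RPKTM in at least 3 hepatocyte libraries. RPKTM, the deposited unit, is reads per kilobase of transcript per 10000000 reads. The 85 comprise 37 complex I genes, 8 complex I assembly factors that share the Ndufa prefix, 4 complex II, 8 complex III, 11 complex IV and 17 complex V genes. Ndufa4 is counted with complex I by its symbol, although its protein is known as a complex IV subunit. Each gene was followed through its RefSeq transcript with the highest mean in the hepatocyte table.

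Complex I (NADH dehydrogenase) and complex II (succinate dehydrogenase) pass electrons from NADH and succinate to ubiquinone. Complex III passes them to cytochrome c, complex IV (cytochrome c oxidase) passes them to oxygen, and complex V (ATP synthase) uses the resulting proton gradient to make ATP. Hepatocytes are rich in mitochondria, and their fatty acid oxidation, gluconeogenesis and urea synthesis draw on this chain.

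All mice were male C57BL/6J carrying floxed alleles, and all received a high-fat, high-sucrose diet (D12492) for 4 weeks. An adeno-associated virus given at 8 weeks of age carried either GFP (Control) or Cre recombinase under the hepatocyte TBG promoter, so the deletions were directed to hepatocytes and not to macrophages. RevDKO mice were to lose both REV-ERB genes (Nr1d1 and Nr1d2, repressors in the circadian clock), RevScapTKO mice both and Scap (the escort protein that SREBP activation requires), and ScapKO mice Scap alone. Hepatocytes and macrophages were isolated at ZT4, ZT10, ZT16 and ZT22, where ZT0 is lights on and ZT12 lights off, with 3 libraries per genotype, cell type and time, 96 in all. Control, RevDKO and RevScapTKO share a table of 36 libraries per cell type, and ScapKO has a table of 12 per cell type. Each table was quantile normalized by itself, so levels are compared only within a table, and sequencing depth is unknown.

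In the hepatocyte table Scap was at 321 to 733 RPKTM in RevDKO and 82.8 to 299 in RevScapTKO, and these ranges did not overlap. Nr1d1 and Nr1d2 were not lower in RevDKO (medians 91.3 against 45.9 RPKTM in Control for Nr1d1, and 320.1 against 218 for Nr1d2). Whole-transcript values do not resolve the floxed exons, so they are no check of that deletion. The clock gene Arntl, which REV-ERBs repress, was at 117 to 155 RPKTM in RevDKO and 4.21 to 119 in Control. The 12 macrophage markers had summed levels of 262 to 3445 RPKTM in Control hepatocyte libraries, 455 to 2644 in RevDKO and 1034 to 6689.9 in RevScapTKO, and none of the 12 was at 0 in any of these libraries. In the macrophage table the 12 summed to 3593 to 42103 RPKTM. The 10 hepatocyte markers summed to 29363 to 1616890.0 there, so hepatocyte transcripts were measured in every macrophage library.

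Read against all expressed genes, the chain was abundant in hepatocytes. The median member averaged 108 RPKTM over the 36 libraries, against 45.0 for the 13326 genes that passed the filter, and 69 of 85 members were above that value. RPKTM is scaled by transcript length, so genes are ranked by level here, for this table only. Atp5b, the catalytic beta subunit of ATP synthase, was the highest of the 85, at a mean of 2663 RPKTM. The lowest was Atp5g2, a copy of the c subunit of the membrane ring, at 3.75 RPKTM. The complexes differed in their usual level, with a median over genes of 335 RPKTM for complex II, 258 for complex IV, 177 for complex III, 133 for complex V, 88.8 for complex I and 20.8 for the assembly factors. Across the 85 members the rank correlation of mean level with transcript length was 0.30, a description over genes that share the same libraries. The order of single genes differed in the ScapKO hepatocyte libraries. The lowest member there was Atp5l, at a mean of 0.739 RPKTM for the transcript chosen in the table of 36 libraries. In the ScapKO hepatocyte table another transcript had the highest mean for 7 members, and whether Atp5l is among them is not given here. Atp5g2 averaged 38.7 RPKTM there, a level that cannot be set against 3.75 in the other table.

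Where a subunit exists in tissue variants, most variants were near absent. Among the c subunit copies the Control medians were 419 RPKTM for Atp5g3, 72.7 for Atp5g1 and 3.13 for Atp5g2. The heart and muscle forms Cox6a2, Cox7a1 and Cox8b, the testis forms Cox6b2, Cox7b2 and Cox8c, and the lung form Cox4i2 exceeded 5 RPKTM in 0 of the 36 hepatocyte libraries. Ndufa11b also exceeded it in 0, Ndufb4c in 1 and Ndufa4l2 in 2. These 10 are the symbols that did not qualify. Just inside the threshold were Atp5g2, over 5 RPKTM in 8 libraries, and Atp5l, in 21.

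The first comparison asked what hepatocyte loss of both REV-ERBs did to the chain. None of the 85 members passed the test between RevDKO and Control hepatocytes, where 590 of 13326 genes (4.43%) did, 2% higher and 2.43% lower (limma, Benjamini-Hochberg adjusted p under 0.05, averaged over the 4 times). The ranges of all 85 overlapped between the genotypes, where 0.36% of all genes had ranges that did not. Of the members, 2 had an unadjusted p under 0.05. The member differences ran from -0.55 to 0.27 on the log2(RPKTM + 1) scale, with a median of 0.00, and 43 were positive and 42 negative. Sdha differed by 0.17 ± 0.10, Cox4i1 by 0.02 ± 0.13 and Atp5b by 0.22 ± 0.14 (SE). Further log2 differences are on this same scale, which understates changes of low genes. Without Control ZT4 replicate 3, 2 members passed.

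The second comparison added loss of Scap to that of the REV-ERBs. Between RevScapTKO and RevDKO hepatocytes 31 of 85 members (36.5%) were lower and 0 higher, where 12.7% of all genes tested were called lower and 13.5% higher, 26.2% in all. The median member differed by -0.34, against -0.03 for all genes tested, and 84 of 85 differences were negative. Calls came from every complex, with 16 of 37 in complex I, 1 of 8 assembly factors, 2 of 4 in complex II, 4 of 8 in complex III, 3 of 11 in complex IV and 5 of 17 in complex V. For each of the 85 members the 12 RevScapTKO libraries overlapped the 12 RevDKO libraries, where 0.758% of all genes had ranges that did not. The number called was 18 without RevScapTKO ZT4 replicate 3, 19 without RevScapTKO ZT10 replicate 2 and 54 without RevScapTKO ZT4 replicate 1. In the same comparison 12 of 12 macrophage markers were called higher, and 4 of 10 hepatocyte markers lower and 0 higher. With the macrophage marker score as a covariate 0 of 85 members were called, as set out below, so the differences that follow are of libraries with unequal markers.

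**Figure D1:**
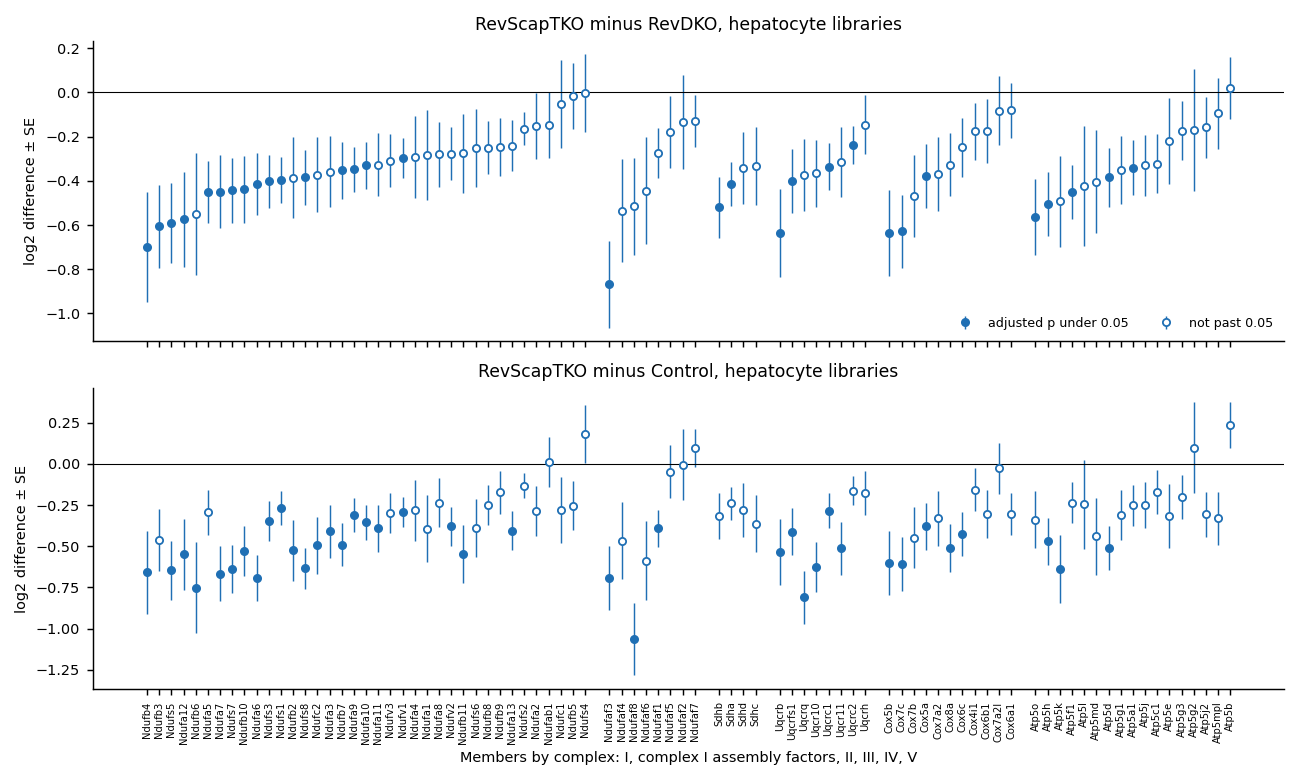
Difference in mean log2(RPKTM + 1) of each of the 85 members between RevScapTKO and RevDKO and between RevScapTKO and Control hepatocyte libraries, 12 per genotype, by complex. Points are estimates averaged over 4 times, bars ± SE, filled where the adjusted p was under 0.05. Against RevDKO 31 points are filled, all below 0, and the only open point above 0 is Atp5b at 0.02.

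Among complex I genes, the largest called differences were in accessory subunits. Ndufb4, a membrane arm subunit, was at 3.18 to 21.7 RPKTM (median 13.3) in RevScapTKO and 9.18 to 29.1 (median 17.7) in RevDKO. It differed by -0.70 ± 0.25 (adjusted p = 0.0372, limma), and its call held in 11 of 24 fits that each left out 1 library. Ndufb3, also of the membrane arm, was at 15.8 to 125 RPKTM (median 61.6) in RevScapTKO and 57.4 to 146 (median 103) in RevDKO, a difference of -0.61 ± 0.19 (adjusted p = 0.0173, limma). Their ranges overlapped, with the lowest values in RevScapTKO.

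Ndufs5 was at 4.77 to 22.8 RPKTM (median 15.1) in RevScapTKO and 11.3 to 25.4 (median 23.0) in RevDKO. All 12 RevScapTKO libraries were below the RevDKO median, and the difference was -0.59 ± 0.18 (adjusted p = 0.0164, limma). The core subunits gave smaller differences with smaller errors. Ndufs1, the large iron-sulfur subunit, was at 161 to 534 RPKTM (median 425) in RevScapTKO and 479 to 615 (median 532) in RevDKO, a difference of -0.40 ± 0.10 (adjusted p = 0.00516, limma). Ndufv1, which binds NADH and FMN, was at 186 to 392 RPKTM (median 289) in RevScapTKO and 274 to 442 (median 347) in RevDKO and differed by -0.30 ± 0.09 (adjusted p = 0.0174, limma). Ndufs1, Ndufv1, Ndufb3 and Ndufs5 each stayed called in 24 of 24 fits that left out 1 library. Ndufa4 differed by -0.29 ± 0.19 and was not called.

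Ndufaf3, a complex I assembly factor, gave the largest difference of the 85. It is a named gene only through its rhythm test in macrophages, and its hepatocyte values were picked after they were seen. It was at 5.09 to 21.7 RPKTM (median 12.3) in RevScapTKO and 13.9 to 43.2 (median 22.4) in RevDKO, 1.82-fold lower, with a difference of -0.87 ± 0.20 (adjusted p = 0.0016, limma). All 12 RevScapTKO libraries lay below the RevDKO median. Uqcrc2, Atp5a1 and Atp5j, given below, lie outside the rule for named genes and were picked after their values were seen.

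In complex II both hydrophilic subunits were lower. Sdha, the flavoprotein that oxidizes succinate, was at 846 to 1579 RPKTM (median 1224) in RevScapTKO and 1304 to 2179.9 (median 1568) in RevDKO. It differed by -0.41 ± 0.10 (adjusted p = 0.00233, limma), and 11 of 12 RevScapTKO libraries lay below the RevDKO median. Sdhb, the iron-sulfur subunit, was at 155 to 430.3 RPKTM (median 303) in RevScapTKO and 333 to 905 (median 372) in RevDKO and differed by -0.52 ± 0.14 (adjusted p = 0.00671, limma). The membrane anchors Sdhc (-0.33 ± 0.17) and Sdhd (-0.34 ± 0.16) had smaller differences with more spread and did not pass the test.

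In complex III, Uqcrb, an accessory subunit, was at 19.7 to 131 RPKTM (median 73.5) in RevScapTKO and 59.0 to 146 (median 106) in RevDKO. It differed by -0.64 ± 0.20 (adjusted p = 0.0184, limma), and 8 of 12 RevScapTKO libraries were below the RevDKO median. The Rieske iron-sulfur protein Uqcrfs1 differed by -0.40 ± 0.14 (adjusted p = 0.0393, limma), and the core proteins Uqcrc1 by -0.34 ± 0.11 (adjusted p = 0.0202) and Uqcrc2 by -0.24 ± 0.09 (adjusted p = 0.0395). The calls of Uqcrfs1, Uqcrc1 and Uqcrc2 held in 12, 23 and 11 of 24 fits that left out 1 library.

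In complex IV, Cox5b was at 12.5 to 88.0 RPKTM (median 55.5) in RevScapTKO and 49.5 to 107 (median 70.8) in RevDKO and differed by -0.64 ± 0.19 (adjusted p = 0.0154, limma). Cox7c was at 5.99 to 30.3 RPKTM (median 15.6) in RevScapTKO and 14.3 to 41.4 (median 24.6) in RevDKO and differed by -0.63 ± 0.16 (adjusted p = 0.00546, limma). Cox5a, a matrix-side subunit, differed by -0.38 ± 0.14 (adjusted p = 0.0484, limma) and stayed called in 7 of 24 fits that left out 1 library.

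The other 8 complex IV genes were not called. Cox4i1, the ubiquitous form of subunit 4, was at 359.8 to 871 RPKTM (median 661) in RevScapTKO and 538 to 1438 (median 651) in RevDKO, a difference of -0.18 ± 0.13. Cox6a1 differed by -0.08 ± 0.13, Cox6b1 by -0.18 ± 0.15, Cox7a2l, a supercomplex factor, by -0.08 ± 0.15, Cox8a by -0.33 ± 0.14, Cox7a2 by -0.37 ± 0.17 and Cox7b by -0.47 ± 0.19.

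In complex V the 5 calls of 17 were Atp5a1, Atp5d, Atp5f1, Atp5h and Atp5o. Atp5o, the OSCP subunit that joins the stalk to the catalytic head, was at 55.5 to 209 RPKTM (median 131) in RevScapTKO and 131 to 489 (median 169) in RevDKO and differed by -0.57 ± 0.17 (adjusted p = 0.015, limma). Of the other peripheral stalk subunits, Atp5h differed by -0.51 ± 0.15 (adjusted p = 0.0108) and Atp5f1 by -0.45 ± 0.12 (adjusted p = 0.00809), while Atp5j gave -0.33 ± 0.14 (adjusted p = 0.0765) and was not called.

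Of the catalytic pair only Atp5a1 was called. Atp5a1, the alpha subunit, was at 1720.0 to 3063 RPKTM (median 1983) in RevScapTKO and 2117 to 4472 (median 2450.2) in RevDKO, a difference of -0.34 ± 0.13 (adjusted p = 0.0444, limma) that held in 9 of 24 fits that left out 1 library. Atp5b, the beta subunit, was at 2136 to 5566 RPKTM (median 2361) in RevScapTKO and 2043 to 4180.1 (median 2397) in RevDKO, a difference of 0.02 ± 0.14. Whether the difference of Atp5a1 departs from that of Atp5b was not tested. The c subunit copies Atp5g1 (-0.35 ± 0.15), Atp5g2 (-0.17 ± 0.28) and Atp5g3 (-0.17 ± 0.13) were not called.

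**Figure D2:**
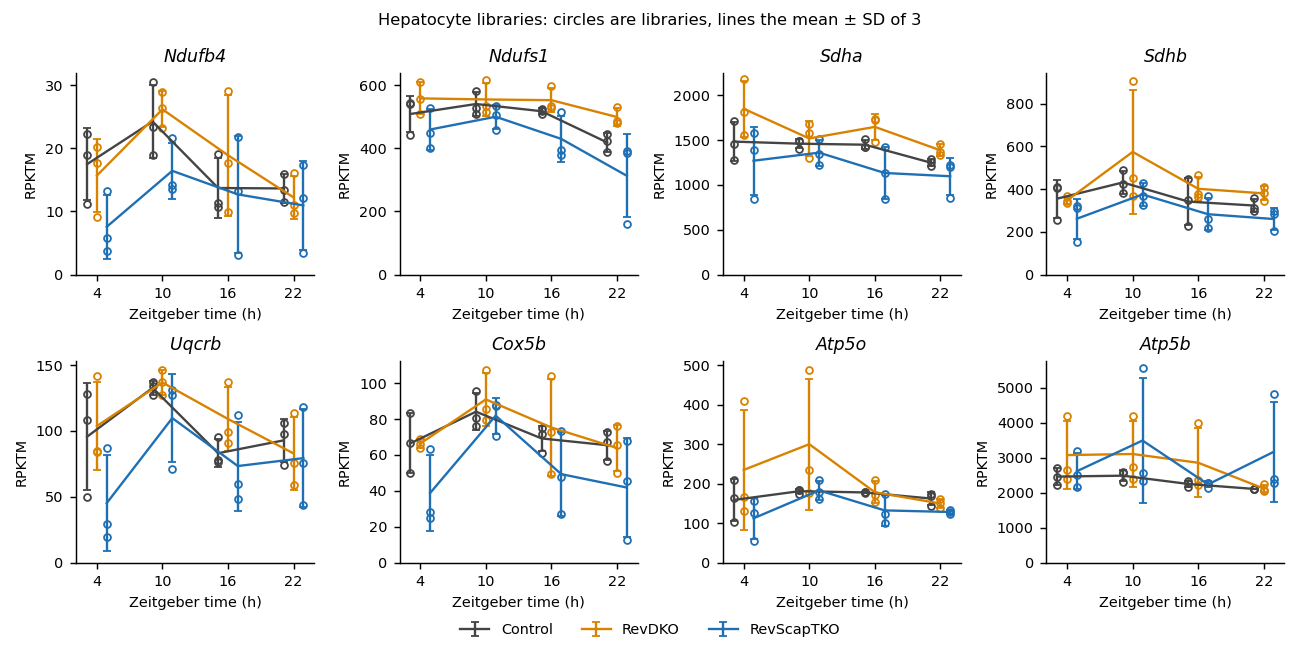
RPKTM of 8 members (Ndufb4, Ndufs1, Sdha, Sdhb, Uqcrb, Cox5b, Atp5o and Atp5b) in the 36 hepatocyte libraries against zeitgeber time in hours, coloured by genotype. Circles are single libraries and lines the mean ± SD of 3. The lowest RevScapTKO circle of Ndufb4 is at 3.18 RPKTM and that of Sdha at 846, below every RevDKO circle, while Atp5b reaches 5566 in RevScapTKO.

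Promoters are shown as a description, since several transcription factors are known to bind such promoters. Their part in the differences above was not tested. RefSeq start windows (GRCm38.p6, 250 bases before to 50 after the start) matched 71 of 85 members by symbol. Both strands were searched for GCGCATGC (NRF1 core), CCGGAAG (ETS and GABP core), AAGATGGCG (YY1), AAGGTCA (ERR core) and CACGTG (E-box). The NRF1 core stood in 16.9% of the 71 member windows against 2.81% of 27018 windows of all genes. The ETS core stood in 25.4% against 9.12%, YY1 in 9.86% against 1.495%, the ERR core in 11.3% against 4.66% and the E-box in 7.04% against 7.24%. Other gene groups had such shares too. The ETS core stood in 36.2% of 69 windows of mitochondrial ribosomal genes and 38.7% of 62 of cytosolic ribosomal genes, both above the members. YY1 stood in 11.6% and 4.84%, the NRF1 core in 11.6% and 3.23%, and the ERR core in 5.80% and 6.45% of these windows. Median GC content was 59.0% in the members and 52.7% in all windows. Among the 26 windows of members lower in RevScapTKO than in RevDKO the NRF1 core stood in 11.5% and the ETS core in 19.2%, and among the 45 others in 20.0% and 28.9%. A match describes letters and not a bound site.

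The windows printed here, read 5′ to 3′ on the gene's strand, belong to a called member each of complexes I, II and IV and to Atp5b, the member whose difference lay above 0. Capitals mark motif matches. In Ndufb4 the ERR core begins 55 bases before the start. In Sdhb the NRF1 core, on the opposite strand, begins 54 bases before the start and the ETS core 6 bases after it. None of the 5 motifs is in the Cox5b and Atp5b windows. The windows of Uqcrfs1 (complex III) and Atp5o (complex V), picked in the same way and not printed, hold none either.
Ndufb4 (chr16:37654319-37654618, - strand): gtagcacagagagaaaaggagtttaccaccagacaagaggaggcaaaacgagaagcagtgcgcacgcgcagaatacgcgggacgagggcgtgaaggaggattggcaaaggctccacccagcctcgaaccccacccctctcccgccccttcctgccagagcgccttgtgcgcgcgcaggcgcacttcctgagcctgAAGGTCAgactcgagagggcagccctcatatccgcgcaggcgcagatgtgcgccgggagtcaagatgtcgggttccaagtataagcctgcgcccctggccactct
Sdhb (chr4:140961021-140961320, + strand): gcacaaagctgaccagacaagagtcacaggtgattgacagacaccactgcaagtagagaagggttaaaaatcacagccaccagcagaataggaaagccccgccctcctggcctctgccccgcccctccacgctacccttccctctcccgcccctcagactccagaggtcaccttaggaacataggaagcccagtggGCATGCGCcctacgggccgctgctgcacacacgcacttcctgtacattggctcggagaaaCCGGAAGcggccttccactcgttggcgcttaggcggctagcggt
Cox5b (chr1:36691237-36691536, + strand): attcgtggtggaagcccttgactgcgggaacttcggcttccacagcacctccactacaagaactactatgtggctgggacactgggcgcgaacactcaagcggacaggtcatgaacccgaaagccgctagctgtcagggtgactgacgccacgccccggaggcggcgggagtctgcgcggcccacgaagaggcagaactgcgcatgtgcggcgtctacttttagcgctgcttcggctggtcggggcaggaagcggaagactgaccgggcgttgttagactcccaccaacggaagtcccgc
Atp5b (chr10:128083057-128083356, + strand): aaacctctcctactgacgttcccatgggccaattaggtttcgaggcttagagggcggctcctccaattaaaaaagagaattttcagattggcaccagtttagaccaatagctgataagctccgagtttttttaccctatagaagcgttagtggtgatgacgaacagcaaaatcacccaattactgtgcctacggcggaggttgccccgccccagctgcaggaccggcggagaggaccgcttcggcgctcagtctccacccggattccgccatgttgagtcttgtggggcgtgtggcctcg

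RevScapTKO was then set against Control hepatocytes, a comparison that shares the RevScapTKO libraries with the one against RevDKO. Here 39 of 85 members (45.9%) were lower and 0 higher, where 18.7% of all genes tested were called lower and 17.3% higher (35.9% in all), and the median member differed by -0.35. Complex I gave 22 of 37 calls, the assembly factors 3 of 8, complex II 0 of 4, complex III 6 of 8, complex IV 5 of 11 and complex V 3 of 17. Of the members called here, 23 were also called against RevDKO, which is 59.0% of these 39 and 74.2% of those 31. The ranges of all 85 members overlapped, where 0.991% of all genes had ranges that did not. The number called was 60 without Control ZT4 replicate 3. Here too 12 of 12 macrophage markers were called higher, and 3 of 10 hepatocyte markers lower and 0 higher. The fit with the macrophage score called 0 of 85 members.

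The members with the largest differences were in part other genes. Uqcrq, a small complex III subunit, was at 61.1 to 187 RPKTM (median 100.4) in RevScapTKO and 86.1 to 247 (median 191) in Control, 1.75-fold lower (-0.81 ± 0.16, adjusted p = 0.000267, limma). All 12 RevScapTKO libraries were below the Control median. Uqcr10 differed by -0.63 ± 0.15 (adjusted p = 0.00173, limma) and Uqcrb by -0.54 ± 0.20 (adjusted p = 0.0352). In complex I the largest were Ndufb6 (-0.75 ± 0.28, adjusted p = 0.0326), Ndufa6 (-0.69 ± 0.14, adjusted p = 0.000296) and Ndufa7 (-0.67 ± 0.16, adjusted p = 0.00221). Ndufb6 was at 7.86 to 109 RPKTM (median 72.5) in RevScapTKO and 42.9 to 136 (median 100.2) in Control, and its call held in 15 of 24 fits that left out 1 library.

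In complex IV the largest were Cox7c (-0.61 ± 0.16), Cox5b (-0.60 ± 0.19) and Cox8a (-0.51 ± 0.14), and in complex V Atp5k (-0.64 ± 0.21), Atp5d (-0.51 ± 0.13) and Atp5h (-0.47 ± 0.15). Sdha missed the threshold against Control (-0.24 ± 0.10, adjusted p = 0.0542, limma), as did Sdhb (-0.32 ± 0.14, adjusted p = 0.0771), Sdhc (-0.36 ± 0.17) and Sdhd (-0.28 ± 0.16). Atp5b again stood on the other side of 0 (0.24 ± 0.14, adjusted p = 0.19, limma). The assembly factor Ndufaf8 (picked after its values were seen) differed most of the 85, being at 1.92 to 9.41 RPKTM (median 5.75) in RevScapTKO and 4.74 to 18.5 (median 12.2) in Control, a difference of -1.06 ± 0.22 (adjusted p = 0.000373, limma).

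The members moved together from library to library, and markers of other cells moved with the genotype. The median deviation of the 85 members from their own means was -0.48 to 0.47 (log2) over the 12 Control libraries, -0.31 to 0.61 in RevDKO and -1.01 to 0.32 in RevScapTKO. The lowest were RevScapTKO ZT4 replicates 3 (-1.01, with 84 of 85 members below their means) and 2 (-0.73), then RevScapTKO ZT22 replicate 2 (-0.61) and Control ZT4 replicate 3 (-0.48). These 4 had hepatocyte marker scores (mean log2 over the markers) of 13.0, 12.9, 12.9 and 13.1, against a mean of 13.6 in Control.

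All 12 macrophage markers, 5 of 6 endothelial markers and 5 of 5 stellate markers were called higher in RevScapTKO than in RevDKO hepatocyte libraries, with median differences of 1.04, 0.54 and 1.06. Of the hepatocyte markers 4 of 10 were called lower (median -0.27). Over 12 libraries per genotype, Control had a macrophage marker score of 6.00 ± 1.16 (mean ± SD), RevDKO of 6.09 ± 0.803 and RevScapTKO of 7.22 ± 0.911. With this score as a covariate, 0 of 85 members were called in any of the 3 hepatocyte comparisons (limma, adjusted p under 0.05), with 5, 1 and 1 at an unadjusted p under 0.05 for RevDKO against Control, RevScapTKO against RevDKO and RevScapTKO against Control. Most calls among all genes were lost in this fit for the latter 2. In the same order, 330, 88 and 271 of 13326 genes were called higher and 383, 259 and 515 lower. At an unadjusted p under 0.05 (limma) there were 2387, 1635 and 2492 genes. The median member then differed by 0.03 between RevScapTKO and RevDKO and by 0.05 between RevScapTKO and Control. Within groups of the same genotype and time, 41 of 85 members were called for a negative slope on the score and 0 for a positive one, where 4.11% of all genes were called for a negative slope. In bulk samples fewer hepatocytes and less RNA per hepatocyte cannot be told apart.

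**Figure D3:**
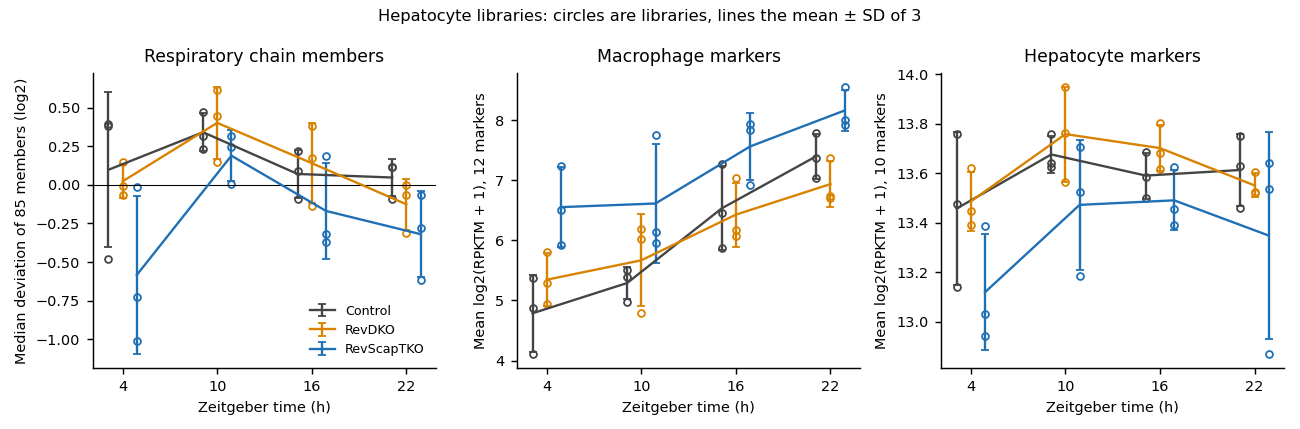
Median log2 deviation of the 85 members from their means (left) and mean log2(RPKTM + 1) of 12 macrophage markers (middle) and 10 hepatocyte markers (right) in the 36 hepatocyte libraries against zeitgeber time in hours. Circles are libraries, lines the mean ± SD of 3. At ZT4 RevScapTKO averages -0.58 on the left, with a macrophage score of 6.55 against 4.79 in Control and a hepatocyte score of 13.1 against 13.5.

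Differences were also read at each time, as values with no test of their own. At ZT4 all 85 members had a lower mean in RevScapTKO than in RevDKO (median difference -0.56), while at ZT10, ZT16 and ZT22 there were 73, 80 and 68 (medians -0.26, -0.30 and -0.16). The RevScapTKO libraries at ZT4 were uneven, with replicates 2 and 3 low (median member deviations -0.73 and -1.01) and replicate 1 at -0.01. The test of changed rhythm between these genotypes called 0 of 85 members, with 0 at an unadjusted p under 0.05 (limma). Sdha, Sdhb, Ndufs1 and Uqcrb were among the 58 members lower at all 4 times. Without ZT4 in the fit, 9 members were called against RevDKO and 17 against Control, all lower, and the medians were -0.25 and -0.27. The share of all genes called in that smaller fit is not given here, so these counts cannot show whether the members stood out.

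**Figure D4:**
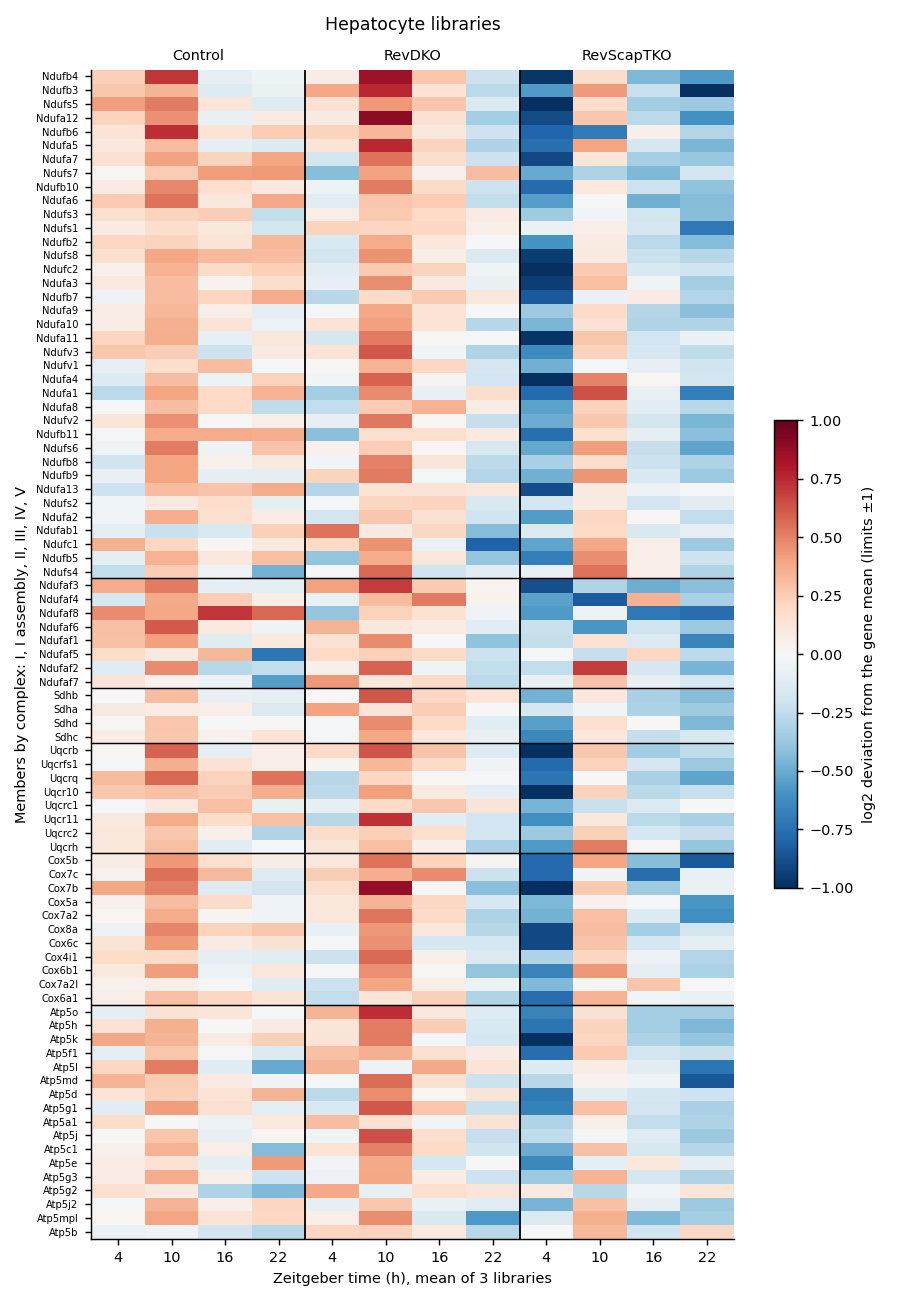
Mean log2(RPKTM + 1) of each member (rows, grouped by complex) in each genotype and zeitgeber time (columns, 3 hepatocyte libraries each), as the deviation from the gene's mean over the table, with the colour scale limited to ±1. The mean of the library medians is -0.58 for RevScapTKO ZT4, and 0.34 and 0.40 for Control and RevDKO ZT10.

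The next question was whether the chain cycles over the day. By the rhythm rule of the study, JTK_CYCLE on the series entered 2 times (adjusted p under 0.05, peak over trough above 1.5, a 24 h period), 7 of 84 members were rhythmic in Control hepatocytes, where 24.2% of all genes were. In RevDKO 35 of 85 were (background 24.1%), in RevScapTKO 20 of 85 (background 14.3%). Of the 35 in RevDKO, 31 peaked at ZT10, as did 12 of the 20 in RevScapTKO and 5 of the 7 in Control. The 35 comprised 16 complex I genes, 3 assembly factors, 1 complex II, 2 complex III, 6 complex IV and 7 complex V genes. Single libraries moved these counts. The Control count was 4 without ZT10 replicate 1 or ZT10 replicate 3 and 23 without ZT4 replicate 3, the RevDKO count 17 without ZT10 replicate 2 and 20 without ZT22 replicate 1, and the RevScapTKO count 7 without ZT10 replicate 1 or ZT10 replicate 3, 10 without ZT10 replicate 2 or ZT16 replicate 1 or ZT22 replicate 2 and 31 without ZT22 replicate 3. With each series entered once, 1, 5 and 0 members were rhythmic in Control, RevDKO and RevScapTKO. The share of all genes under that rule is not given here, so these counts cannot be set against a background. The macrophage marker score of these libraries also rose over the sampled times. At ZT4, ZT10, ZT16 and ZT22 it averaged 4.79, 5.29, 6.53 and 7.40 in Control and 5.34, 5.67, 6.43 and 6.94 in RevDKO. In RevScapTKO the averages were 6.55, 6.61, 7.56 and 8.16. The part of this score in the rhythm counts was not tested.

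Cox7b, a small complex IV subunit, averaged 291 ± 57.3 RPKTM at ZT4, 496 ± 209.6 at ZT10, 262 ± 56.8 at ZT16 and 193 ± 30.8 at ZT22 in RevDKO (SD, n = 3). Its JTK_CYCLE adjusted p there was 9.16e-05, or 0.0185 with the series entered once. Both are adjusted over the patterns tried for that gene and not over genes. Entering a series 2 times makes p smaller without adding data. In Control its means were 378 ± 217, 362 ± 27.9, 236 ± 48.8 and 226 ± 38.7 at the same times. In Control hepatocytes the rhythmic members with the largest peak over trough were Atp5l (2.15, at mean levels of 3.72 to 7.99 RPKTM), Ndufs4 (1.66) and Atp5c1 (1.62). Ndufs4, an accessory subunit of complex I, averaged 176 ± 5.60 RPKTM at ZT10 and 106 ± 9.70 at ZT22.

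These counts do not show that rhythms differ between genotypes. A test of the difference itself, on the 24 h cosine and sine terms, called 0 of 85 members between RevDKO and Control, where 27 of 13326 genes (0.203%) were called, and 0 of 85 between RevScapTKO and RevDKO, where 0 of 13326 (0%) were (limma, adjusted p under 0.05). In both, 0 members had an unadjusted p under 0.05. The smallest unadjusted p in limma belonged to Ndufab1 (0.0654), Ndufv3 (0.0681), Ndufc1 (0.141), Atp5mpl (0.148) and Ndufaf1 (0.169) in the former, and to Cox7b (0.0633), Cox6c (0.0662), Ndufv3 (0.0964), Ndufs1 (0.108) and Atp5f1 (0.123) in the latter.

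In liver macrophages the members stood closer to the usual level of expressed genes. The median member averaged 29.0 RPKTM, against 21.2 for the 13947 genes that passed the filter, and Atp5a1 was the highest of the 85 at 599 RPKTM. Between RevDKO and Control 0 of 85 members were called, where 0.574% of all genes were (0.402% higher and 0.172% lower), with 2 members at an unadjusted p under 0.05 (limma). Between RevScapTKO and Control 0 of 85 were called, where 3.76% of all genes were (2.38% higher and 1.38% lower), with 19 members at an unadjusted p under 0.05 (limma) and a median difference of -0.29. In both, the ranges of all 85 members overlapped, where 0.0287% and 0.129% of all genes had ranges that did not. Against Control the RevScapTKO count was 1 without RevScapTKO ZT10 replicate 1.

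Between RevScapTKO and RevDKO macrophages 5 of 85 members were lower and 0 higher, where 1.78% of all genes were called lower and 1.23% higher (3% in all), and the median member differed by -0.31. The 5 were Sdha, Sdhb, Uqcrc1, Ndufv1 and Ndufs1, catalytic or core subunits of complexes I to III, each of which was also lower in the hepatocyte libraries. Sdha was at 157 to 264 RPKTM (median 172) in RevScapTKO and 209 to 478 (median 265) in RevDKO, and all 12 RevScapTKO libraries lay below the RevDKO median. It differed by -0.62 ± 0.13 (adjusted p = 0.0038, limma). Sdhb was at 50.5 to 87.5 RPKTM (median 75.6) in RevScapTKO and 70.2 to 237 (median 118) in RevDKO, again with 12 of 12 below the RevDKO median, and differed by -0.69 ± 0.16 (adjusted p = 0.0119, limma). The ranges of each of the 85 members overlapped, where 0.151% of all genes had ranges that did not. The number called was 2 without RevScapTKO ZT10 replicate 3 and 3 without RevDKO ZT10 replicate 1 or RevDKO ZT10 replicate 3 or RevDKO ZT16 replicate 1 or RevDKO ZT4 replicate 3 or RevScapTKO ZT16 replicate 2 or RevScapTKO ZT22 replicate 3 or RevScapTKO ZT4 replicate 2 or RevScapTKO ZT4 replicate 3.

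The remaining 3 calls depended more on single libraries. Ndufs1 was at 46.3 to 93.1 RPKTM (median 64.9) in RevScapTKO and 58.1 to 174 (median 97.9) in RevDKO and differed by -0.53 ± 0.14 (adjusted p = 0.025, limma). Uqcrc1 differed by -0.56 ± 0.15 (adjusted p = 0.0341, limma) and Ndufv1 by -0.54 ± 0.15 (adjusted p = 0.0423). Sdha and Sdhb stayed called in 24 and 24 of 24 fits that left out 1 library, Ndufs1 in 21, Uqcrc1 in 16 and Ndufv1 in 8. The membrane anchors of complex II gave -0.09 ± 0.22 (Sdhc) and -0.04 ± 0.17 (Sdhd), Cox4i1 gave 0.15 ± 0.17 and Atp5b gave -0.33 ± 0.16, none of them called. Hepatocyte markers in these libraries gave a median difference of -0.38, with 2 of 10 called lower. With the hepatocyte marker score as a covariate 7 of 85 members were called, all lower, Sdha (-0.56, adjusted p = 0.0266), Sdhb (-0.63, adjusted p = 0.0483) and Ndufs1 (-0.56, adjusted p = 0.0389) among them (limma). Calls among all genes rose in this fit, to 519 higher and 349 lower of 13947.

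**Figure D5:**
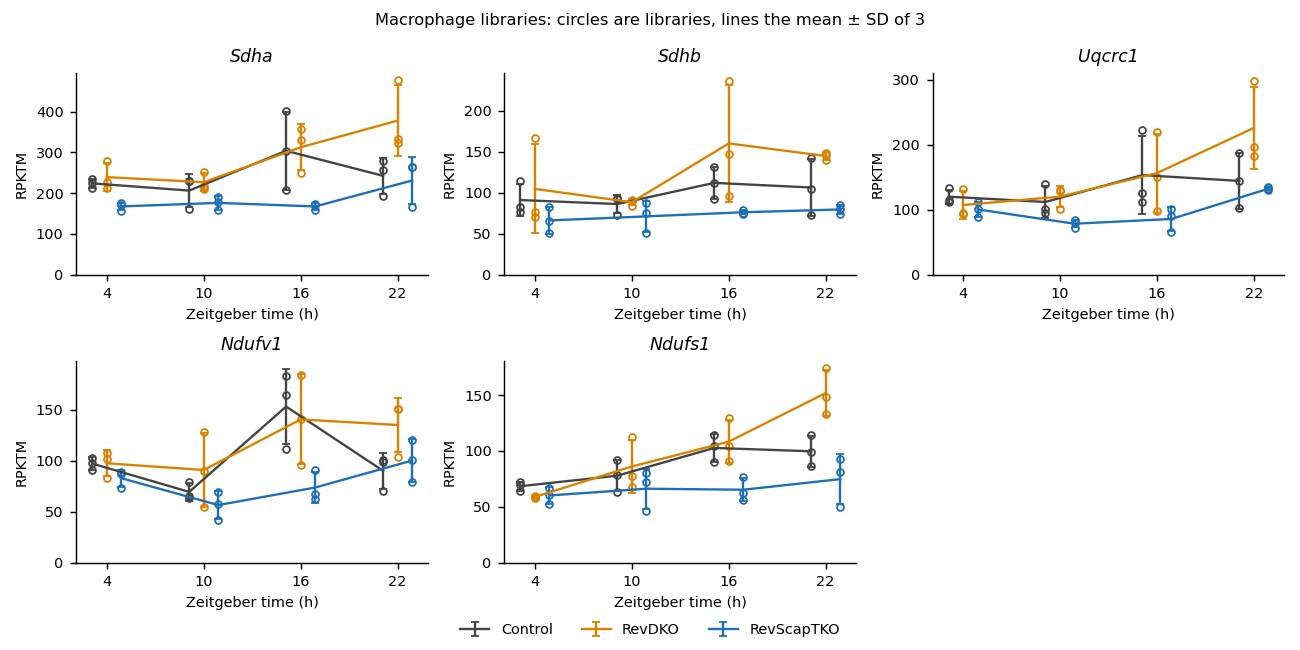
RPKTM of the 5 members called between RevScapTKO and RevDKO in the 36 liver macrophage libraries against zeitgeber time in hours, coloured by genotype. Circles are single libraries and lines the mean ± SD of 3. The highest RevScapTKO circle is at 264 RPKTM for Sdha and 87.5 for Sdhb, and the RevDKO means of Ndufs1 are 58.9 at ZT4 and 152 at ZT22. The hepatocyte marker score of the RevDKO libraries averages 10.3 at ZT4 and 11.2 at ZT22.

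By the rhythm rule 12 of 82 members were rhythmic in Control macrophages (background 13.4%), 12 of 85 in RevDKO (19.7%) and 12 of 80 in RevScapTKO (10.3%). The Control count was 7 without ZT4 replicate 2, the RevDKO count 20 without ZT10 replicate 3, and the RevScapTKO count 7 without ZT22 replicate 1 or ZT4 replicate 3. In Control macrophages the largest ratios belonged to Ndufaf6 (9.42, at mean levels of 0.750 to 7.06 RPKTM), Ndufs5 (7.48, 2.03 to 15.2 RPKTM) and Ndufs6 (3.36, 7.08 to 23.8 RPKTM).

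The test of changed rhythm called 0 of 85 members in both macrophage comparisons, where 0 of 13947 genes (0%) were called, with 7 and 4 members at an unadjusted p under 0.05 (limma). The smallest unadjusted p in limma belonged to Ndufb9 (0.00585), Ndufaf7 (0.0133), Ndufaf6 (0.0203), Ndufa11 (0.0216) and Atp5g1 (0.0366) between RevDKO and Control, and to Ndufb9 (0.00315), Ndufaf3 (0.00378), Ndufa9 (0.0367), Ndufs1 (0.0497) and Cox7b (0.0808) between RevScapTKO and RevDKO. Ndufb9, a complex I accessory subunit, averaged 20.5 ± 6.10, 48.2 ± 12.6, 77.1 ± 26.5 and 52.9 ± 3.70 RPKTM at the 4 times in RevDKO (SD, n = 3). Its means were 31.5 to 37.2 in RevScapTKO and 35.7 to 49.3 in Control, and neither difference in rhythm passed adjustment.

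The ScapKO tables have no control of their own, so they give levels and rhythm only. The labels of the 12 ScapKO hepatocyte libraries disagree, since their titles name hepatocytes and their cell type field names macrophages. The titles were followed, and in these libraries the hepatocyte marker score was 13.9 to 14.8 and the macrophage marker score 4.92 to 7.503. In ScapKO hepatocytes the median member averaged 289 RPKTM against 83.5 for all genes that passed, and Atp5b was the highest at 5431. One library stood apart. In the library labelled ScapKO hepatocyte ZT22 replicate 2, 84 of 84 members that passed the filter were below their means (median -0.91), and its Scap was 1006 RPKTM against 205 to 379.6 in the other 11. Its macrophage score was 7.503 and its endothelial score 9.23 (table means 5.85 and 7.36). In ScapKO macrophages, ZT22 replicate 2 had a member median of -0.52, the highest hepatocyte (12.3) and endothelial (10.8) scores and the lowest macrophage score (10.4) of its table. The part of these marker values in the members' levels was not tested.

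In ScapKO hepatocytes 5 of 84 members were rhythmic (background 14.6%), and the count was 2 without ZT10 replicate 1 or ZT10 replicate 2, 3 without ZT16 replicate 2 or ZT4 replicate 2 or ZT4 replicate 3, 8 without ZT16 replicate 1 and 13 without ZT22 replicate 2. In ScapKO macrophages 25 of 85 were rhythmic (background 15.1%), 16 of them with a peak at ZT10, and the count was 14 without ZT22 replicate 2 and 15 without ZT10 replicate 2. Atp5j2, the f subunit of ATP synthase (picked after its values were seen), averaged 62.5 ± 5.40, 104 ± 2.653, 79.7 ± 12.5 and 46.8 ± 4.70 RPKTM at ZT4, ZT10, ZT16 and ZT22 there (SD, n = 3). With each series entered once, 0 hepatocyte and 2 macrophage members were rhythmic, again without the share of all genes.

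Genes that work with the chain were read in the same hepatocyte fit, where 12.7% of all genes were called lower and 13.5% higher against RevDKO, and 18.7% and 17.3% against Control. Between RevScapTKO and RevDKO, 15 of 40 assembly factors outside the symbol rule were lower and 0 higher (median -0.35), among them Ecsit of complex I (-0.73 ± 0.14), Cox18 of complex IV (-0.66 ± 0.13) and Uqcc2 of complex III (-0.66 ± 0.17). Of 6 electron carriers and other subunits 3 were lower and 0 higher, namely Cycs (cytochrome c, -0.58 ± 0.20), Cyc1 (cytochrome c1, -0.46 ± 0.12) and Etfa (an electron transfer flavoprotein, -0.44 ± 0.15). Of 13 citric acid cycle genes 6 were lower and 0 higher (median -0.28), including Idh3a (-0.54 ± 0.13) and Fh1 (-0.37 ± 0.10). Against Control the numbers lower and higher were 14 and 1 of 40, 3 and 0 of 6, and 8 and 0 of 13. With the macrophage score as a covariate no gene of the 3 lists was called against RevDKO (limma), with 4, 0 and 0 at an unadjusted p under 0.05 and medians of -0.09, -0.02 and -0.11. Against Control it left 2 calls, the assembly factors Cox11 (higher) and Pet117 (lower).

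Among 15 regulators of mitochondrial genes, Ppargc1a, the coactivator PGC-1alpha, was lower in RevScapTKO than in RevDKO (-0.69 ± 0.23, adjusted p = 0.0265, limma), while its relative Pprc1 (0.58 ± 0.17, adjusted p = 0.0143) and Nfe2l2 (0.35 ± 0.10, adjusted p = 0.0119) were higher. Against Control, Esrra (-0.37 ± 0.12), Polrmt (-0.39 ± 0.11), Ppara (-0.50 ± 0.12) and Tfb1m (-0.29 ± 0.11) were lower and Pprc1 and Nfe2l2 higher, while Ppargc1a (-0.21 ± 0.23, adjusted p = 0.5) was not called. With the macrophage score as a covariate, 0 of the 15 were called against RevDKO (1 at an unadjusted p under 0.05, limma) and Polrmt alone against Control. Ribosomal proteins were set beside the members as another large group of coordinated genes. Of 76 mitochondrial ribosomal genes 11 were lower and 1 higher against RevDKO (median -0.23), and 38 lower and 1 higher against Control (median -0.36). Of 77 cytosolic ribosomal genes 8 and 30 were lower and 0 higher (medians -0.12 and -0.34). Against RevDKO these are 14.5% and 10.4% lower, near and below the share of all genes, and against Control 50% and 39.0%. With the macrophage score as a covariate 0 and 1 were lower against RevDKO, and 0 and 3 against Control. In macrophages each of these lists gave at most 2 calls in any comparison. For the citric acid cycle, 2 of 13 (15.4%) were lower and 0 higher in RevScapTKO, both against RevDKO and against Control. Of all genes, 1.78% and 1.38% were lower there. With the hepatocyte score as a covariate, 18 of 71 cytosolic ribosomal genes were lower and 1 higher against Control, where 899 of 13947 genes were lower and 1070 higher.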

How the data were processed

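Per the labels and the methods of the study, the authors depleted ribosomal RNA, sequenced total RNA, used STAR for alignment to mm9 and HOMER for counting per RefSeq transcript; versions and the strand setting are not given in the sources used here. The deposited values are RPKM-type values scaled to 10000000 reads (RPKTM), which the authors quantile normalized within each table, so that every library of a table holds the same sorted values and read depth and counting error cannot be recovered. The deposited transcript lengths, in bases, are listed beside them. Without a stated strand setting, 10 members that overlap a gene on the opposite strand and 2 that hold a microRNA gene (Ndufa10 and Atp5b) may carry reads of that gene.

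Each gene was represented by its highest-mean transcript, and members kept the one chosen in the hepatocyte table of 36 libraries. Another transcript was highest for 2 members in the macrophage table, and for 7 and 3 in the ScapKO hepatocyte and macrophage tables. Genes with at least 3 libraries over 5 RPKTM were kept, and log2(RPKTM + 1) was fitted with limma 3.58.1 (R 4.3.3, with a mean trend) over 12 group means per cell type, averaging contrasts over the 4 times, with Benjamini-Hochberg adjustment over all genes tested. Changed rhythm was an F test of 24 h cosine and sine terms. JTK_CYCLE was rewritten in Python 3.11.15, searching periods of 18 and 24 h, with at least 2 libraries over 5 RPKTM required. Its adjusted p is Bonferroni over the patterns tried for each gene, not over genes. The model was tested on simulated data. Named genes were the 3 largest called rises and falls per complex in each hepatocyte comparison and the 5 largest in each macrophage comparison, all Sdh and core subunits, tissue isoform sets, the 5 smallest changed-rhythm p-values per test and the 3 largest Control ratios; exceptions are stated. Members and lists were chosen with earlier results of these data known. Nothing ties libraries to named animals, so p-values measure the spread between libraries. Alternatives covered the pseudocount, filters, transcripts, libraries, centring, covariates and the replicate block. Promoter windows came from RefSeq, and 14 members without a window were left out of the motif counts.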

Additional observations from a re-analysis of the deposited data

How the results depend on the processing

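Depth is unknown, so precision is limited to the spread over 12 libraries per genotype. The planned exclusion of 3 hepatocyte libraries with Alb over 10% of the total was not run as planned, since 5 met it. These 5, the 3 such macrophage libraries, the markers of a table's own cell type as a covariate and the fits without ZT4 were chosen after seeing the data. With the other cell type's marker score as a covariate, called members numbered 0 for RevScapTKO against RevDKO and 0 against Control in hepatocytes, and 3 for RevScapTKO against Control in macrophages. With the own score they numbered 0, 6 and 2, and 1 for RevDKO against Control in hepatocytes. Without ZT4 the hepatocyte counts were 9 and 17. With the hepatocyte score, 1070 of 13947 genes were called higher and 899 lower for RevScapTKO against Control in macrophages. For the own score, the fits without ZT4 and those without 1 library, the share of all genes called is not given here. The fit of only RevScapTKO and RevDKO macrophages called 3 members, and without the Alb libraries 1 member had a changed rhythm between RevScapTKO and RevDKO hepatocytes. The cause was not tested.

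With the macrophage score, Atp5d (0.0557), Cox5a (0.0305) and Ndufa6 (0.0105) turned positive against RevDKO, as did Ndufb6 (0.29) and Uqcrb (0.13) against Control, and with the hepatocyte score Cox5a (0.0267). None of these 6 values was past the threshold.

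Leaving out 1 library gave 0 to 2, 18 to 54 and 27 to 60 called members in hepatocytes for RevDKO against Control, RevScapTKO against RevDKO and RevScapTKO against Control, and 0 to 0, 2 to 6 and 0 to 1 in macrophages. Changed rhythm stayed at 0 to 0 in all 4 tests. Rhythmic members in hepatocytes numbered 4 to 23 (Control), 17 to 38 (RevDKO), 7 to 31 (RevScapTKO) and 2 to 13 (ScapKO), and in macrophages 7 to 15, 10 to 20, 7 to 14 and 14 to 30. Over the named genes, 791 leave-one-out values kept their direction and side of the threshold, and 121 kept direction but lost the call.

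Rhythm counts depended on the rule, and the share of all genes under each alternative rule is not given here. In the order Control, RevDKO, RevScapTKO and ScapKO, a single entry of each series left 1, 5, 0 and 0 rhythmic hepatocyte members and 0, 2, 1 and 2 rhythmic macrophage members, adjustment over genes gave 0 in each, and limma's 24 h terms gave 0, 1, 0 and 0, then 0, 2, 0 and 0. Without a minimum ratio Control hepatocytes gave 22 and ScapKO hepatocytes 9. With 2 libraries over 50 RPKTM, Control hepatocytes gave 2, and Control and RevScapTKO macrophages 4 each.

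Deviations of same-numbered libraries had a mean correlation of 0.0379 in hepatocytes and 0.0898 in macrophages, against -0.0188 and -0.0444 for different numbers, and 24 and 27 of 36 libraries correlated best with their own number, a hint of some shared deviation from the data and not from the design. The lowest same-number correlations were -0.273 and -0.199, so the numbers were not taken to pair the libraries. With the replicate block the counts for RevDKO against Control, RevScapTKO against RevDKO and RevScapTKO against Control were 0, 31 and 42 in hepatocytes and 0, 6 and 0 in macrophages, and changed rhythm stayed at 0.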
